A study of Mus musculus with 2 samples.

Results

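The dense distal clusters of untreated epidermal basal cells are 500 stretches of the mouse genome in which ATAC-seq peaks lay close together, or were very high, in the control library. They were the 500 largest of 26572 clusters, or 1.88%. To find them, autosomal control peaks more than 2.5 kb from either end of any protein-coding gene were joined where the gap was at most 12500 bp. Clusters were then ranked by the sum of their peaks' pileups, the pileup being the number of fragments stacked at a peak's summit. The control library alone chose the members, so its heights and the fold computed against it are descriptions and support nothing by themselves.

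ATAC-seq cuts open chromatin with the Tn5 transposase and sequences the fragments. The series held 2 libraries from back skin, 1 of a CD1 mouse whose skin was expanded by mechanical force (stretched) and 1 of a CD1 mouse left untreated (control), each made from 10000 sorted cells. Sorting kept basal cells of the interfollicular epidermis, positive for the integrin ITGA6 and negative for CD34, which marks stem cells of the hair follicle bulge. CD1 is an outbred stock, so a difference between these 2 animals and an effect of stretching cannot be told apart. With 1 library per group there was no test and no p-value, and every interval is an exact Clopper-Pearson 95% interval that covers counting error only. Fragments carried no molecular identifiers, so counts are not independent molecules.

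Basal cells hold the dividing and stem cell population of the skin surface. They sit on the basement membrane through integrins and hemidesmosomes, and p63, AP-1, AP-2, GRHL and KLF factors bind much of their open chromatin. Enhancers that sit close together along a chromosome, often called super-enhancers when they carry much coactivator or histone acetylation, tend to lie at genes that set a cell's identity. These libraries hold no histone mark, so the members are called clusters of open chromatin, and enhancer activity was not measured.

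Some members span microRNA genes, and their mature sequences are shown because each names a locus by its product, grouped by seed (bases 2 to 8, in capitals; RefSeq, GRCm38.p6). Of 1005 hairpins in the RefSeq table, 28 lay in 25 members and 4 of these lay on a member peak. The let-7 pair lay in the 12th cluster by summed pileup, which overlaps Ppara and lies within 50 kb of Wnt7b.
let-7c-5p: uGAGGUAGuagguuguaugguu
let-7b-5p: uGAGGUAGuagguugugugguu
The miR-29 pair, whose targets include collagen transcripts, lay in the cluster of rank 76.
miR-29a-3p: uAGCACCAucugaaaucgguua
miR-29b-3p: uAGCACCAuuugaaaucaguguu
The epithelial miR-205 lay in the cluster of rank 48, and miR-126a, a microRNA of endothelial cells, lay in that of rank 231.
miR-205-5p: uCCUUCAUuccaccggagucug
miR-126a-3p: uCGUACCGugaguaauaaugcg

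The let-7 cluster, chr15:85599019-85749564 (GRCm38), held 2977 control and 2085 stretched counts, with a fold of 0.740 (0.699 to 0.783). Folds throughout are stretched over control after TMM scaling, which sets the trimmed mean ratio of all regions to 1. The miR-205 cluster, chr1:193503832-193589298, held 1564 and 2010 counts, a fold of 1.36 (1.27 to 1.45). The miR-29 cluster held 1258 and 1089 counts, a fold of 0.915 (0.843 to 0.993). The miR-126a cluster, which holds Egfl7 and lies near Notch1, held 805 and 497 counts, a fold of 0.652 (0.582 to 0.730). Of these 4 clusters, the one with miR-205 was higher after stretching and the others were lower, each beyond counting error. These folds are of whole clusters, not of the microRNA genes, and depend on the scaling.

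Some member peaks cover transcription starts that RefSeq lists inside or far from the ends of protein-coding genes. Windows of 300 bases, from 250 before to 50 after a start, were used for them. A member peak covered 97 windows in full, 53 of protein-coding and 44 of long non-coding RNA genes. The 5 windows below are shown because the libraries measured open chromatin directly on them, from the region that gained most among these to the one that lost most. Capitals mark matches on either strand to TGANTCA, the core motif of AP-1, the family of FOS and JUN. Each sequence is on the strand of its gene.
Gm31613, chr16:78236743-78237042: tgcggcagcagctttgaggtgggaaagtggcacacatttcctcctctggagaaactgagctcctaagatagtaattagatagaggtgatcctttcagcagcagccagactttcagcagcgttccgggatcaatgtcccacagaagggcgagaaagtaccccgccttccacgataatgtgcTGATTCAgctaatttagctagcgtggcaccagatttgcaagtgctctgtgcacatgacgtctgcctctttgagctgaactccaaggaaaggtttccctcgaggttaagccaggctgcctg
Mir205hg, chr1:193510161-193510460: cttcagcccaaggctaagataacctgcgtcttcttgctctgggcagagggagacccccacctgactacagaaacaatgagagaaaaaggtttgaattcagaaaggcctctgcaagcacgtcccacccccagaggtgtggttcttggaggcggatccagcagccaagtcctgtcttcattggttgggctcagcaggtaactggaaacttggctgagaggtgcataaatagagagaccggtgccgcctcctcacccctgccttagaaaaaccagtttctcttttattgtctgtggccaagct
Lmna, chr3:88503303-88503602: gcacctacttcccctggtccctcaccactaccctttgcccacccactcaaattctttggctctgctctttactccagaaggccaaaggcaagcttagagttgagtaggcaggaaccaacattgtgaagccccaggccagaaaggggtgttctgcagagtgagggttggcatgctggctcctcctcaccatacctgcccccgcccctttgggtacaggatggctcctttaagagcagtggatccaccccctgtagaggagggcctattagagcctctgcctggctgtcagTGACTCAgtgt
Septin9, chr11:117331465-117331764: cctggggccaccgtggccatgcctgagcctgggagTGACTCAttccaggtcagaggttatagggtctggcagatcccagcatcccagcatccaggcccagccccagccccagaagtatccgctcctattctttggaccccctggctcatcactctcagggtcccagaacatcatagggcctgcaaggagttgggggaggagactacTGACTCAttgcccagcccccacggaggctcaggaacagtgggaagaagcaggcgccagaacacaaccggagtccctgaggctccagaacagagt
Pitpnm2, chr5:124187133-124187432: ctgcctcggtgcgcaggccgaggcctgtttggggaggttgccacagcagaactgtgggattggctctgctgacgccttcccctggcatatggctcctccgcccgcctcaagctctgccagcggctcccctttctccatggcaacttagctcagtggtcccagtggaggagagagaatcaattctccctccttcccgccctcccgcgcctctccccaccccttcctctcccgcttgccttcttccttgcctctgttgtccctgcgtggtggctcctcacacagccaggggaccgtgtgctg

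The Gm31613 window, from a long non-coding RNA in the cluster near Cxadr, lay in a region with 50 control and 104 stretched counts, with a fold of 2.20 (1.55 to 3.14). The window of Mir205hg, the host transcript of miR-205, lay in a region with 116 and 196 counts, a fold of 1.79 (1.41 to 2.27). The region on the internal start of Lmna, which encodes the nuclear lamins A and C, had 220 and 271 counts, a fold of 1.30 (1.09 to 1.56). That on Septin9, a cytoskeletal septin, had 101 and 78 counts, a fold of 0.816 (0.599 to 1.11), which is within counting error. That on Pitpnm2, a phosphatidylinositol transfer protein, had 172 and 53 counts, a fold of 0.326 (0.235 to 0.445). The windows with an AP-1 match thus lay on regions both above and below 1, as did those without.

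TGANTCA was found in 15 of the 97 windows (15.5%), in 7.84% of all 31396 autosomal windows and in 9.28% of 981 windows covered by other distal control peaks. The TEAD letters GGAATG were found in 21.6% of member windows, in 14.6% of all windows and in 13.3% of those under other distal peaks. The GC-rich KLF letters GGGNGGGG were found in 46.4%, 33.4% and 43.4% in the same order, so members were close to other distal peaks. The GATA letters AGATAA were found in 5.15%, 11.2% and 7.95%. Letters of other factors were also scored, given here for members and then other distal peaks. GRHL letters were found in 1.03% and 2.55%, CEBP in 4.12% and 9.68%, and ETS in 8.25% and 8.36%. RUNX letters were found in 4.12% and 3.06%, p63 in 0% and 0.306%, CTCF in 0% and 1.83%, and NFI in 0% of both. No interval or test was made for the shares of these 97 windows, so they are a description only. Matches were counted on both strands, those of different motifs may share bases, and they describe sequence, not binding. Sequence at the member peaks away from starts was not analysed here.

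The control library held 31944854 fragments after the authors' filtering and the stretched library 23876613, while counts in the 109257 merged regions summed to 8820178 and 11803785. There were 10 regions with more than 10000 counts each, which took 34.5% of control and 48.9% of stretched counts. Outside them the totals were 5776423 and 6027023. Gene-end counts of cell type markers, within 1 kb of either gene end, had the largest sum for keratinocytes. The 9 keratinocyte markers summed to 2420 control and 2636 stretched counts with none at 0. Fibroblast markers summed to 169 and 93 with 4 of 8 at 0 in both libraries, and Langerhans and myeloid markers to 100 and 110 with 5 of 7 at 0. Endothelial markers summed to 176 and 123 with 3 of 7 at 0, T cell markers to 819 and 584 with 1 of 6 at 0 (264 and 212 without Bcl11b, which the epidermis also uses), and Merkel markers to 370 and 340 with 1 of 4 at 0. Melanocyte markers summed to 818 and 933 with 2 of 7 at 0. The control median per marker was 200 for keratinocyte, 113 for Merkel and 29 for melanocyte markers. Single markers overlapped, since keratinocyte markers began at 31 control counts, while Merkel markers reached 144 and melanocyte markers 406. The share of other cells in the libraries was not measured.

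The members held 4735 peaks, 9.25% of the 51213 distal peaks, and 17.9% of the summed pileup. A member spanned from 259 to 181817 bp with a median of 44248.5 bp, and had from 1 to 43 peaks with a median of 9. By comparison, 58.2% of all clusters were single peaks. Among members, 460 had at least 5 peaks, 213 at least 10 and 15 at least 20, while 28 had 2 to 4 and 12 had only 1. Peaks covered 11.2% of the members' combined span. In the median member the strongest peak made up 24.2% of the sum, and in 42 members it made up more than 50%. Member peaks were higher than other distal peaks, with a median pileup of 37 against 24, which the ranking favours, but their median fold enrichment over the local background was 4.48 against 4.69.

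**Figure D1:**
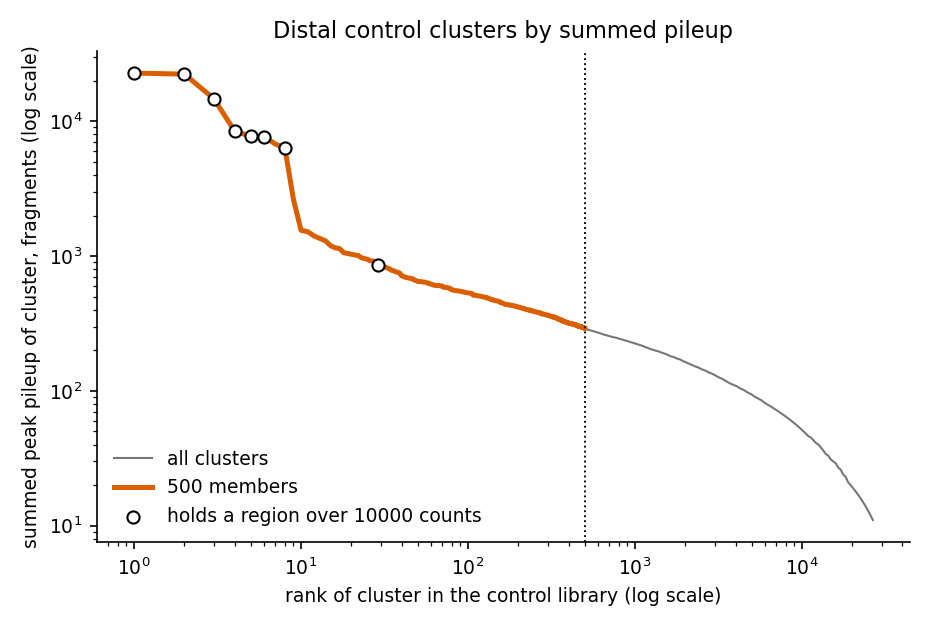
Summed pileup of each distal control cluster (fragments, log scale) against its rank (log scale). Members lie left of the dotted line at rank 500, from 22777 down to 291, and open circles mark the 8 members that hold a region of more than 10000 counts, 7 of which are among the 8 highest ranks.

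Members lay mainly in or beside genes. The midpoint of 306 members (61.2%) was inside a protein-coding gene, against 58.2% of the next 500 clusters. No gene was overlapped by 141 members, 1 gene by 325, and 2 to 5 genes by 34. Chromosome 4 carried 51 members and chromosome 2 carried 48, while chromosome 14 carried 11. The limit of the ranking fell between near-equal clusters. Just inside it were Lrch1 (rank 499, pileup 291, 620 control and 594 stretched counts) and Nfatc1 (rank 500, pileup 291, 516 and 441 counts). Just outside were Cmip (rank 501, pileup 291, 620 and 375 counts) and Nedd9 (rank 502, pileup 290, 469 and 407 counts).

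Most of the largest sums were single high peaks rather than dense clusters. The 8 members with a region of more than 10000 counts had ranks 1 to 6, 8 and 29, and 7 of them were 1 peak each. The first, chr1:24611605-24616103, held 1698689 control and 3309788 stretched counts, with a fold of 2.06, and is a stretch known to resemble mitochondrial DNA. The fifth, chr17:39843112-39848738, where ribosomal RNA sequence lies, held 98100 and 92527 counts, a fold of 0.997. The sixth, chr10:96077527-96077889, held 65785 and 155308 counts, a fold of 2.49, and 7 of the 8 were between 1.64-fold and 2.49-fold higher. These 8 were set apart, and the remaining 492 members are summarised from here on.

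Of the 492, 11 (2.24%) were higher after stretching by 1.5-fold or more and 49 (9.96%) were lower by as much, with an interval that excludes 1. Over all 25814 stitched control clusters with at least 20 counts, 9.61% were higher and 18.3% lower by the same rule. Among the next 500 clusters, 5.4% were higher and 9% lower. Counts per cluster were a median of 1496.5 for members, 952 for the next 500 and 134 for all clusters. Folds of small sums spread more by counting error, so these shares are not of like units. The member median was a log2 fold of -0.11, against -0.02 for the next 500, -0.12 for all clusters and 0.00 for all merged regions. A fold within 1.5 was found for 432 members. The member sums were 463579 control and 399022 stretched counts, with a fold of 0.910 (0.906 to 0.913), whereas those of the next 500 had a fold of 1.005. The Cwc22 cluster alone gave 18158 and 7351 counts to the member sums, and the interval does not cover the weight of single clusters. Both sets were ranked by control height, so this contrast is a description only.

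The balance of higher and lower members depended on how the libraries were scaled, and reversed under one scaling. With total counts as the scale 0 members were higher and 263 lower, and with counts outside the 10 large regions 6 were higher and 88 lower. With the fragments after filtering, 72 were higher and 9 lower, with a median log2 fold of 0.23. Against TMM these scalings shift every cluster alike, by -0.50, -0.14 and 0.34 on the log2 scale, so the order of the members is the same under each. Only differences between members or sets are therefore free of the choice. Fewer cells with a site open and less opening per cell cannot be told apart in these bulk libraries.

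**Figure D2:**
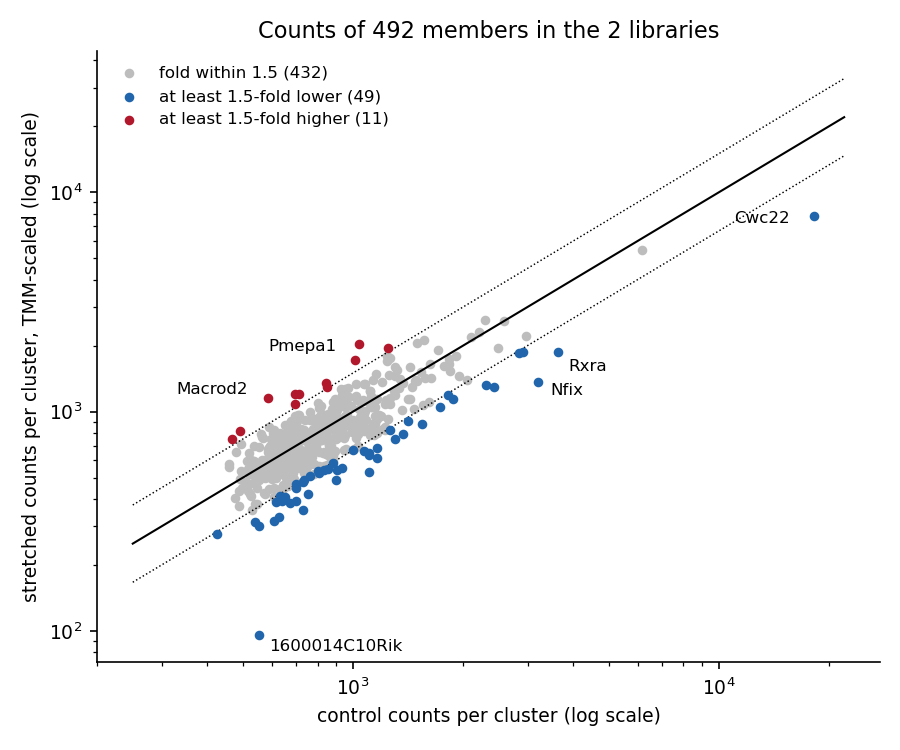
Counts of each of the 492 members in the control library and in the stretched library after TMM scaling (both log scales). The solid line marks equal counts and the dotted lines 1.5-fold, with 49 members below (blue), 11 above (red) and 432 between (grey).

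The same rule applied to the stretched peaks chose a partly different list that leaned the other way. Its 500 clusters, 492 of them without a large region, had a median log2 fold of 0.21, with 75 higher and 10 lower. Over all stitched stretched clusters 14.4% were higher and 10.8% lower. Of the members, 303 (60.6%, 56.2 to 64.9) shared span with a cluster of the stretched list, and 300 of its 500 clusters (60.0%) shared span with a member, against 21.8% of the next 500 control clusters. Another 106 members met a stretched cluster of rank 501 to 1000 at best, and 91 one of a lower rank. The 295 members without a large region that were in both lists had a median of 0.01, with 11 higher and 13 lower. The 197 found only among the control 500 had a median of -0.27, with 0 higher and 36 lower. A place in the stretched list depends on the stretched pileup, so this split sorts members by their change and its counts are a description only.

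**Figure D3:**
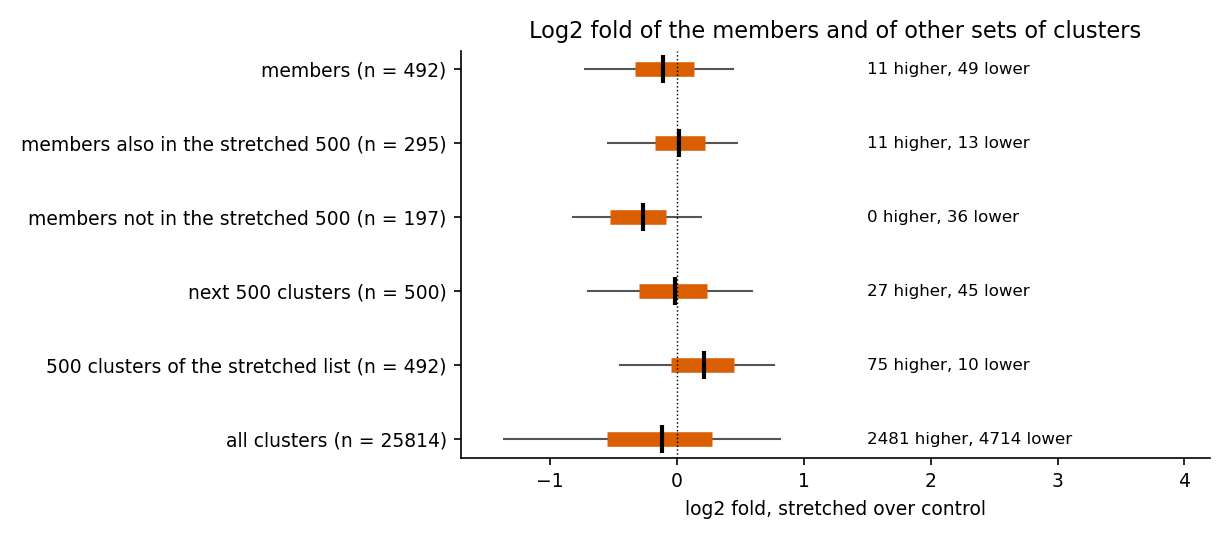
Log2 fold of sets of clusters: bars span the 25th to 75th percentile, lines the 5th to 95th, and ticks mark the median. Members from the control list have a median of -0.11, those of the stretched list 0.21, and members in both lists 0.01.

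At the level of peaks, 4012 of 4735 member peaks (84.7%, 83.7 to 85.7) were overlapped by a stretched peak, against 82.2% of other distal control peaks. Within classes of equal pileup the order was the reverse. For a pileup of 25 to 39 the shares were 85.3% of member peaks (83.3 to 87.2) and 94.1% of others (93.6 to 94.5). For 15 to 24 they were 66.8% and 75.3%, and for 80 or more they were 96.7% and 100%. No member lost all its peaks, since each held at least 1 stretched peak. In all, members held 4269 stretched peaks. There were fewer of these than control peaks in 275 members, more in 70 and the same number in 155.

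Among members that were lower after stretching, several had many peaks and fell along their whole span. Cwc22, a splicing factor, named the cluster with most peaks: 43 over chr2:77869720-78027118, with 18158 control and 7351 stretched counts, with a fold of 0.428 (0.416 to 0.440). All 41 of its regions were below 1 and 36 of these were at least 2-fold lower, while the ends of the gene had 2206 and 1672 counts, a fold of 0.801. This part of chromosome 2 is known to vary in copy number among mice, and copy number was not measured here. The cluster at Nfix, a nuclear factor I gene, spans chr8:84709320-84823910 and held 3206 and 1286 counts, a fold of 0.424 (0.397 to 0.452). Its 24 regions ran from 0.201 to 0.704 and 18 were at least 2-fold lower. Rxra, the retinoid X receptor that pairs with retinoid, vitamin D and PPAR receptors, had 3630 and 1767 counts over chr2:27671634-27745458, a fold of 0.514 (0.486 to 0.545), with 21 of 21 regions below 1. Stra6, the cell-surface receptor for retinol-binding protein, had 610 and 301 counts, a fold of 0.521 (0.453 to 0.600).

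Bcl11b, a zinc finger factor of both epidermis and T cells, had 2434 and 1228 counts, a fold of 0.533 (0.497 to 0.571), with 24 of 24 regions below 1. Of the other T cell markers, Cd3g was lower too, with 39 and 9 gene-end counts. Thy1 had 187 and 149, Cd247 had 35 and 43, Cd3e had 3 and 11, and Ptprc was at 0 in both. Their part in the Bcl11b value was not tested. Celsr1, a cadherin of planar cell polarity, named the longest member, chr15:85943005-86124821, with 2923 and 1768 counts, a fold of 0.639 (0.602 to 0.678). Its gene ends were above 1, with 219 and 259 counts, a fold of 1.25, as were those of 15 of the 44 lower members with such counts, Celsr1 included. The Egfl7 cluster of miR-126a, described above, was also lower. Of the endothelial markers, Pecam1, Cdh5 and Egfl7 had 0 gene-end counts in both libraries. Tek had 60 and 27, Erg had 59 and 27, Kdr had 45 and 37 and Tie1 had 12 and 32, and their part in the Egfl7 value was not tested.

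The lowest fold belonged to a member of rank 303 at 1600014C10Rik, chr7:38175940-38201266, with 554 control and 91 stretched counts, with a fold of 0.174 (0.137 to 0.217). The loss sat in 4 of its 5 regions. One of these, chr7:38187788-38188116, had 241 control and 2 stretched counts, with a fold of 0.0088 (0.0011 to 0.032). Its neighbour, chr7:38189483-38190103, had 134 and 4, a fold of 0.032 (0.0085 to 0.083). The region at the far end, chr7:38200406-38201542, had 105 and 75, a fold of 0.755 (0.554 to 1.02). The ends of the gene had 550 and 366 counts. Prrc2b (fold 0.478), Agap1, an Arf GTPase-activating protein (0.488), and Vav2 (0.524) completed the 8 lowest.

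The higher members were fewer, with ranks from 55 to 491. Macrod2, which removes ADP-ribose from proteins, had 586 control and 1095 stretched counts over chr2:141264696-141301642, a fold of 1.97 (1.78 to 2.19). All 9 of its regions were above 1, from 1.20 to 3.47, and the ends of the gene had 273 and 809 counts, a fold of 3.13. The cluster near Bach1, a haem-sensitive bZIP repressor, had 692 and 1139 counts, a fold of 1.74 (1.58 to 1.91), with 10 of 11 regions above 1. Pmepa1, a TGF-beta target that dampens SMAD signalling, had 1015 and 1630 counts, a fold of 1.70 (1.57 to 1.84), with 9 of 10 regions above 1. The cluster near Cxadr, a tight junction adhesion protein, had 710 and 1133 counts, a fold of 1.69 (1.53 to 1.85). It was mixed inside, with 4 regions at least 2-fold higher and 2 at least 2-fold lower, from 0.264 to 3.63. Mbnl2, a splicing regulator, was the largest of the 11, with 1250 and 1837 counts, a fold of 1.55 (1.44 to 1.67). Zfp804b, with a fold of 1.95, was a single peak of 1037 and 1916 counts. Also among the highest folds was the cluster near Vmn2r87, with 490 and 768 counts, a fold of 1.66 (1.48 to 1.86). Its strongest peak made up 84.0% of the summed pileup, and the ends of the gene had 36 and 17 counts. Camk2d had 466 and 708 counts, a fold of 1.61 (1.43 to 1.81), and Fabp12 had 844 and 1273, a fold of 1.59 (1.46 to 1.74).

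**Figure D4:**
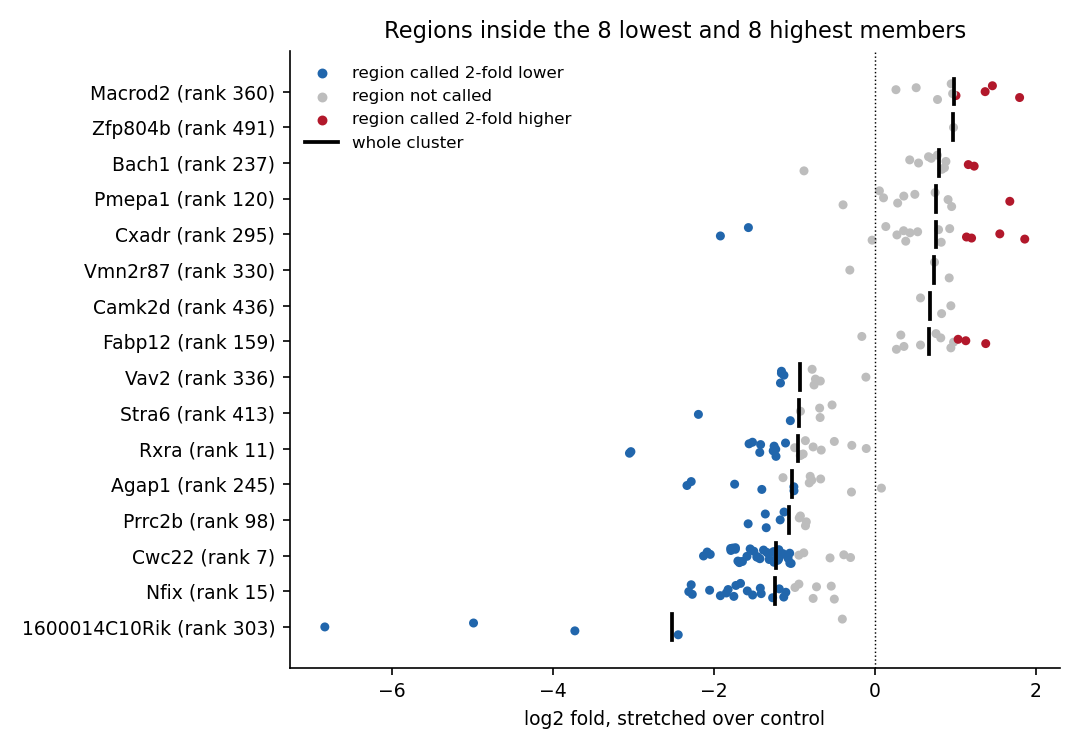
Log2 fold of the regions with at least 20 counts inside the 8 lowest and the 8 highest members, with a black bar at the fold of the whole cluster. Nfix, Cwc22 and Rxra have every region below 0, Macrod2 has every region above 0, and Cxadr has regions called in both directions.

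Within members, most regions went with their cluster. Of 5151 regions with at least 20 counts, 73.6% (72.4 to 74.8) lay on the same side of 1 as the cluster they belong to, a share that includes each region's own weight in the sum. Of 465 members with at least 5 such regions, 50 had all of them below 1, 9 had all above 1, and 406 had both. At least 2-fold higher were 124 regions (2.41%) and at least 2-fold lower were 616 (11.96%), against 6.84% and 9.63% of all distal autosomal regions. Control height chose the members, while all distal regions were merged over both libraries. Fewer higher and more lower regions are thus in part fixed by the choice, and these shares are a description only. Of the lower regions, 14 members held 25% and 50 members held 50%, with 36 in the Cwc22 cluster alone. Members with many regions can hold more of them, and the share of all regions in these members is not given here. Neighbouring regions of a member had a Spearman correlation of 0.36 over 4659 pairs, and those of all clusters 0.32 over 25642 pairs. Such pairs share both libraries and their depth, so this is a description. The median SD of log2 fold among the regions of a member was 0.52, and the median counting SD of a single region was 0.28. Regions with few counts weigh more in the first value, so the gap is not all beyond counting error. Among the 492 members the SD was 0.37. Member folds come from counts summed over regions, so this SD is not of the same unit as that among regions.

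Members in gene-rich stretches had lower folds. The Spearman correlation of log2 fold with the number of coding genes within 500 kb was -0.38 over the 492 members, which share both libraries. Members with 0 to 5 such genes had a median log2 fold of 0.01, with 5 higher and 4 lower. With 6 to 10 genes the median was 0.02, with 3 higher and 4 lower. With 11 to 20 it was -0.16, with 3 and 21, and with 21 to 40 it was -0.30, with 0 and 20. The 11 members with 41 to 62 genes departed from this order at -0.11. In the stretched list the median went from 0.38 with 0 to 5 genes to -0.06 with 21 to 40, and in members of both lists from 0.16 to -0.19. The next 500 clusters went from 0.12 to -0.25, so the slope was not particular to the members. Correlations with the summed pileup (-0.14), span (-0.13) and peaks per 10 kb (0.02) were weaker. Base composition of the spans was not analysed here, and its part in the slope was not tested.

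**Figure D5:**
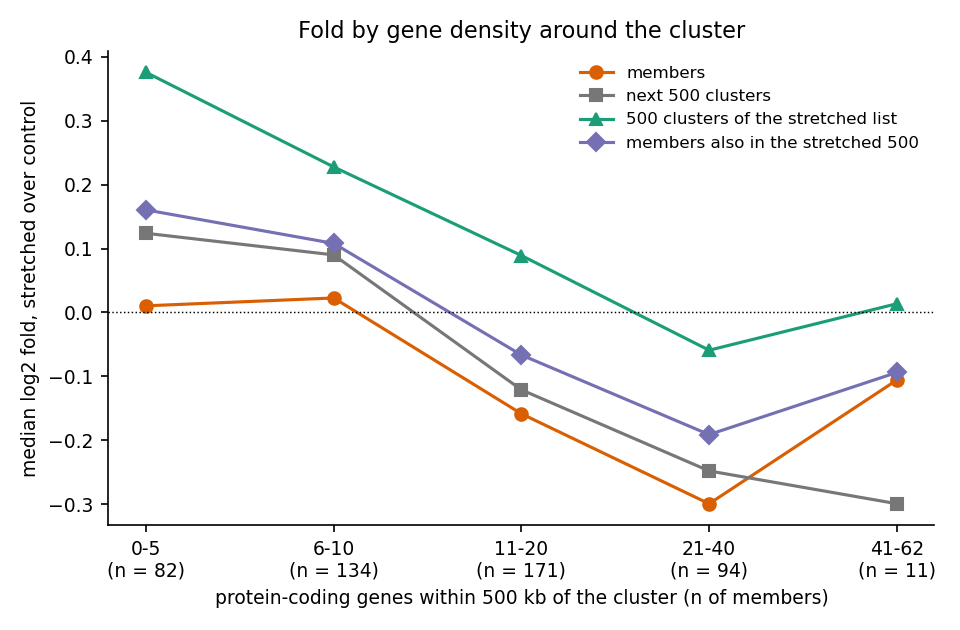
Median log2 fold of clusters grouped by the number of protein-coding genes within 500 kb, with the number of members in each group under the axis. All 4 sets are lower with 21 to 40 genes than with 0 to 5, the members going from 0.01 to -0.30.

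Gene ends, which the rule kept out of the clusters, could be compared with the cluster in 436 members. The fold at the ends of the named gene was above 1 in 277 of these, with a median of 1.10 against 0.926 for the clusters. Control height chose the clusters but not the gene ends, so these medians are a description only. A gene that names several members was counted for each, and no share over all gene ends is given here. Among the 44 lower members with such counts, 29 had gene ends below 1 and 15 above, with a median of 0.814 against 0.598 for the clusters. The clusters were chosen here for their low fold, so ends nearer to 1 are what that choice gives. Of the 11 higher members, 8 had gene ends above 1, with a median of 1.49 against 1.66 for the clusters, which were likewise chosen for their fold. The Spearman correlation of both folds was 0.45 over 436 members.

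Several listed genes of basal cells were near a member. A gene counted as near when a member overlapped it or lay within 50 kb. By this measure 1115 of 20661 autosomal coding genes (5.40%) had a member, and 7 of 16 genes of basal identity and hemidesmosomes (43.8%) did. The lists were chosen with earlier results of these data known, and longer genes meet the measure more easily. Such shares are therefore a description only. The 7 members of the basal list had a median log2 fold of -0.15, with 0 higher and 1 lower. For this and the other lists, the same over the 492 members was a median of -0.11, with 2.24% higher and 9.96% lower, so few calls in lists of this size are near the background. Plec, which links hemidesmosomes to keratin, had 1911 control and 1703 stretched counts, with a fold of 0.942 (0.882 to 1.01). Dst, the hemidesmosomal plakin BP230, had 1164 and 1077, a fold of 0.978 (0.899 to 1.06). Itga3, a laminin-binding integrin, had 1162 and 874, a fold of 0.795 (0.727 to 0.868). Col17a1, the hemidesmosomal collagen, had 823 and 700, a fold of 0.899 (0.811 to 0.995). Itga6, the integrin used in the sort, had 661 and 702, a fold of 1.12 (1.01 to 1.25), and the cluster near its partner Itgb4 had 787 and 629, a fold of 0.845 (0.759 to 0.939). These adhesion genes all stayed within 1.5-fold, and Bcl11b was the lower member of the list.

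Trp63, Krt5 and Krt14, which define basal cells, had no member nearby. The largest distal cluster near Trp63, which encodes p63, ranked 509 with 4 peaks, and held 729 control and 747 stretched counts, with a fold of 1.08 (0.976 to 1.20). That near the basal keratin gene Krt5 ranked 2407 with 3 peaks, and that near its partner Krt14 ranked 5490 with 2 peaks. Krt5 and Krt14 were open at their gene ends, with 543 and 529 counts at Krt5 and 468 and 632 at Krt14. The rule leaves out peaks within 2.5 kb of any coding gene end, and its part in these absences was not tested. None of 19 suprabasal differentiation genes had a member, and 2 of 22 AP-1 and immediate-early genes (9.09%) did. Over all autosomal coding genes the share was 5.40%, so counts in lists of this size are near the background. The 2 immediate-early genes were Ier2, beside the Nfix cluster, and Nr4a1, between the Krt80 and Acvr1b clusters, with folds of 0.683 and 0.757.

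Of 40 epidermal transcription factors, 12 (30.0%) had a member and 17 members were involved, with a median log2 fold of -0.30, 0 higher and 4 lower, beside 2.24% and 9.96% of all 492. The lower ones were Rxra, Nfix, Zbtb16 and Casz1. Zbtb16, the zinc finger factor PLZF, had 1726 control and 992 stretched counts, with a fold of 0.607 (0.561 to 0.657). Casz1, another zinc finger factor, had 3 members with folds of 0.572, 0.793 and 0.815. Grhl3, a grainyhead factor of barrier formation, had 1613 and 1052 counts, a fold of 0.689 (0.637 to 0.745), short of the 1.5-fold rule. Tfap2c, an AP-2 factor, had 919 and 875 counts, a fold of 1.01 (0.916 to 1.10). Ets2 had 2 members with folds of 1.11 and 1.12. The factors therefore differed among themselves by more than counting error.

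Genes of mechanical coupling had members on both sides of 1. Of 39 actomyosin, adhesion and junction genes, 14 (35.9%) had a member, with 15 members, a median log2 fold of -0.22, 0 higher and 2 lower, near the share of all members. The 2 lower were Nectin1, an adherens junction adhesion protein, with 2307 and 1248 counts and a fold of 0.572 (0.533 to 0.613), and Septin9, with 1879 and 1085 counts and a fold of 0.610 (0.566 to 0.658). Pkp1, a desmosomal plakophilin, had 2099 and 2062 counts, a fold of 1.04 (0.976 to 1.10). Myh9, the heavy chain of non-muscle myosin IIA, had 1259 and 1021, a fold of 0.857 (0.788 to 0.931). A cluster near Pkp3, another plakophilin, had the highest fold of the list, with 589 and 805 counts and a fold of 1.44 (1.30 to 1.61).

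Of 18 genes of YAP and TEAD signalling, 6 (33.3%) had a member, with 9 members, a median log2 fold of -0.09, 0 higher and 1 lower, also near that share. Vgll4, which competes with YAP for TEAD, had 2205 and 2178 counts, a fold of 1.04 (0.983 to 1.11). The largest of 3 clusters at Ptpn14, a YAP-binding phosphatase, had 1430 and 1082 counts, a fold of 0.800 (0.738 to 0.866). Amotl1, a junctional YAP-binding protein, had 2 members at 1.13 and 1.09, and the lower member was near Tead3, with 734 and 462 counts and a fold of 0.665 (0.591 to 0.748).

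Of 34 genes of Wnt, Notch, BMP and TGF-beta signalling, 7 (20.6%) had a member, with 8 members, a median of -0.15, 0 higher and 1 lower, again near that share. The lower one was the Egfl7 cluster near Notch1. Smad3, a TGF-beta transducer, had 851 and 540 counts, a fold of 0.671 (0.601 to 0.748). Tgfbr2, the type II TGF-beta receptor, had 621 and 719, a fold of 1.22 (1.10 to 1.36), and Hes1, a Notch target, had 643 and 747, a fold of 1.23 (1.10 to 1.37). Of 21 EGFR and MAPK genes 2 (9.52%) had members, beside 5.40% of all autosomal coding genes. These were Egfr at 1.21 (1.11 to 1.32) with 932 and 1067 counts, and Spred2 with 2 members at 1.01 and 0.993. Of 15 hair follicle genes, 4 had a member, near Krt17, Krt79, Gli2 and Nfatc1, with folds from 0.903 to 1.05.

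The other large members named here did not pass the 1.5-fold rule. Sfi1, at rank 9, had 6157 control and 5150 stretched counts, with a fold of 0.884 (0.852 to 0.917). Ripk4, a kinase of keratinocyte differentiation, had 2291 and 2475, a fold of 1.14 (1.08 to 1.21), while its gene ends had 84 and 154. Krt80, a keratin of differentiating cells, had 2045 and 1322, a fold of 0.683 (0.637 to 0.732), and Foxn3, a forkhead repressor, had 2495 and 1848, a fold of 0.783 (0.737 to 0.832).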

How the data were processed

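Per the submitters' processing notes, reads were aligned to GRCm38 with Bowtie2 2.2.6, filtered with SAMtools and Picard, called as peaks with MACS2 2.1.0.20151222 and counted with HTSeq. Per the file headers, the authors called peaks on each library alone, from paired fragments, at a q-value of 0.05 with no control sample. The deposited peak lists give the pileup signal, the −log10 q-value and the fold enrichment ratio of each peak, and the deposited count files give raw counts in regions merged over both libraries. The treatment of duplicates in the counts was not given in the sources used here.

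Peaks with the same start and end were taken once, at the highest pileup. Distances used RefSeq genes of GRCm38.p6 (21883 coding genes). A cluster's counts are summed over distal merged regions that overlap its span. Members held from 645 to 25509 counts with a median of 1496.5, and the upper bound of the fold's interval was a median of 1.23 times the lower. Fold is stretched over control, scaled by TMM (edgeR 4.0.16, R 4.3.3), with an exact Clopper-Pearson 95% interval (scipy 1.17.1). Calls need a fold of 1.5 for clusters or 2 for regions, at least 20 counts and an interval that excludes 1. The code was tested on simulated data.

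A cluster is named by the coding gene that holds its midpoint, or else by the nearest gene end. Named are the largest, longest and most peak-rich clusters, the 8 highest and 8 lowest folds, those at the limit of the ranking and up to 4 per gene list. Mbnl2, the other members of the gene lists, marker genes, microRNAs and start windows were chosen after their values were seen. The members and lists were chosen with earlier results of these data known. Alternatives were 5 scalings, thresholds, stitching distances, peak strengths, rankings and list sizes. No sequence from chromosome 18 is printed.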

Additional observations from a re-analysis of the deposited data

How the results depend on the processing

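By design, the scaling decided the balance of calls: total counts gave 0 higher, 263 lower, a median log2 fold of -0.61 and 89.3% of regions on their cluster's side. Counts outside the large regions gave 6, 88, -0.25 and 77.4%, and fragments after filtering, chosen after seeing the data, gave 72, 9 and 0.23. A fold of 2 gave 0 higher and 5 lower. Adding the clusters of large regions gave 18 higher, as did peaks over 5 kb from gene ends. Stitching within 5 kb gave 28 higher, 89.4% of peaks overlapped, 54.4% of clusters shared, 80.0% of regions on the side and a median of 3 peaks, and stitching within 25 kb gave 65.6% shared and 16 peaks. Peaks with a −log10 q of at least 10 gave 19 higher, 86.9%, 55.0%, 77.1% and 4 peaks. The 250 largest gave 5 higher, 31 lower, -0.14, 56.0% shared and 76.3% of regions, and the 1000 largest 38, 94 and 66.4% shared. Ranking by fold enrichment gave a median of -0.071, regions on control peaks 74.8%, and a 50% overlap 81.7%. The stretched peaks gave 75, 10 and 0.21. The sign of the median and the balance of higher and lower calls reversed under scaling by fragments and with the stretched peaks; causes beyond the scaling and the choice of list were not tested. Among 55 named clusters, DESeq2 size factors left all 55 on their side of the rule, and total counts left 28. No paired analysis was possible because each group held 1 library. The planned motif shares at peak summits were not run, since they need a genome sequence. At this depth the least counted members had intervals whose upper bound was 1.58 times the lower.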
